A study of Mus musculus with 10 samples.

Results

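The RNA of 10 enzymes of glycolysis, the pathway that splits glucose into pyruvate and, with lactate dehydrogenase, yields lactate, was followed in 10 RNA sequencing libraries of mouse tissue. The genes were Hk1, Gpi1, Pfkl, Pfkm, Aldoa, Gapdh, Pgk1, Pkm, Ldha and Ldhb, chosen by gene symbol, and all 10 were found among the 29868 genes of the deposited table. Aldoa was listed in 2 rows, so the 10 symbols took 11 rows. The Nav group (5 libraries) came from wild-type mice with a myocardial infarction (MI) that received navarixin (Nav), an antagonist of the chemokine receptor CXCR2, by mouth at 1 mg/kg daily for 4 weeks. The MI group (5 libraries) came from wild-type mice with the same infarction that received saline. All mice were male C57BL/6 animals, 8 weeks old, in which the left anterior descending coronary artery had been ligated. The age, dose and duration are those of the study's general protocol. The comparison asked whether RNA of these enzymes differed with navarixin after MI. The labels also name a batch for each library, which equals its group, so batch and treatment cannot be told apart. It is not stated whether each library came from a separate animal, and the tests therefore rest on the spread from library to library, which may be technical.

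Glycolysis has an investment phase, in which hexokinase and phosphofructokinase spend ATP, and a payoff phase, in which phosphoglycerate kinase and pyruvate kinase regenerate it. Most steps can be carried out by several isoenzymes, and tissues differ in which they use. In the kidney, glycolysis is a property mainly of the distal and collecting segments, while the proximal tubule makes glucose and oxidises fatty acids. The adult heart relies on fatty acid oxidation and holds abundant muscle-type glycolytic enzymes.

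All libraries were labelled as heart, but cardiomyocyte genes were close to 0. The 9 cardiomyocyte markers in the table, among them Myh6, Tnnt2 and Nppa, summed to 0.0633 to 0.641 FPKM (fragments scaled to transcript length and to the mapped fragments of the library) in the Nav libraries and to 0.340 to 0.732 FPKM in the MI libraries. The 9 proximal tubule markers summed to 34830 to 52400 FPKM in the Nav libraries and to 31660 to 58410 FPKM in the MI libraries. Most of this sum was Kap, an androgen-regulated kidney transcript, with a mean of 42850 FPKM, and Slc34a1, the phosphate transporter of the proximal tubule, had 682 FPKM. The levels below are therefore described by gene and library, without a statement about heart muscle. The genes of the mitochondrial genome accounted for 26.0 to 45.4% of all FPKM in the Nav libraries and 24.4 to 40.6% in the MI libraries. FPKM are relative to all mapped fragments, and the part of this share in the values of other genes was not tested. The depth was estimated at 16720000 to 20520000 fragments per library.

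Levels are in FPKM, which are scaled to transcript length, so genes could be compared within a library. Ldhb was the highest of the 10 genes, with a mean of 605 FPKM (SD 119, n = 10), and ranked 48 among all genes of the table. In this order Gapdh is taken at its own row, which is uncertain because near-identical copies share its reads. Summed with those copies it averaged 1806 FPKM, above Ldhb. Aldoa (213 FPKM), Pgk1 (195 FPKM) and Ldha (192 FPKM) followed, then Gpi1 (46.8 FPKM) and Pkm (24.3 FPKM). Pfkm (9.12 FPKM), Gapdh (8.29 FPKM), Pfkl (5.24 FPKM) and Hk1 (3.70 FPKM) were lowest. Neighbours in this order were compared within each library by an exact two-sided permutation test with sign flips (9 pairs, n = 10). In it, 6 pairs differed beyond their spread at adjusted p values of 0.00352 or 0.00586. The order came from the means of the same libraries. The adjusted 0.00352 stands for an unadjusted 0.00195, the smallest p that this test can give. The 0.00586, for Gapdh over Pfkl, rests on the uncertain Gapdh row. The remaining 3 pairs did not pass. Aldoa exceeded Pgk1 in 5 of 10 libraries (log2 difference 0.16, SD 0.39, exact adjusted p = 0.311). Pgk1 exceeded Ldha in 6 of 10 (0.03, SD 0.10, exact adjusted p = 0.412), and Pfkm exceeded Gapdh in 8 of 10 (0.15, SD 0.53, exact adjusted p = 0.412).

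**Figure D1:**
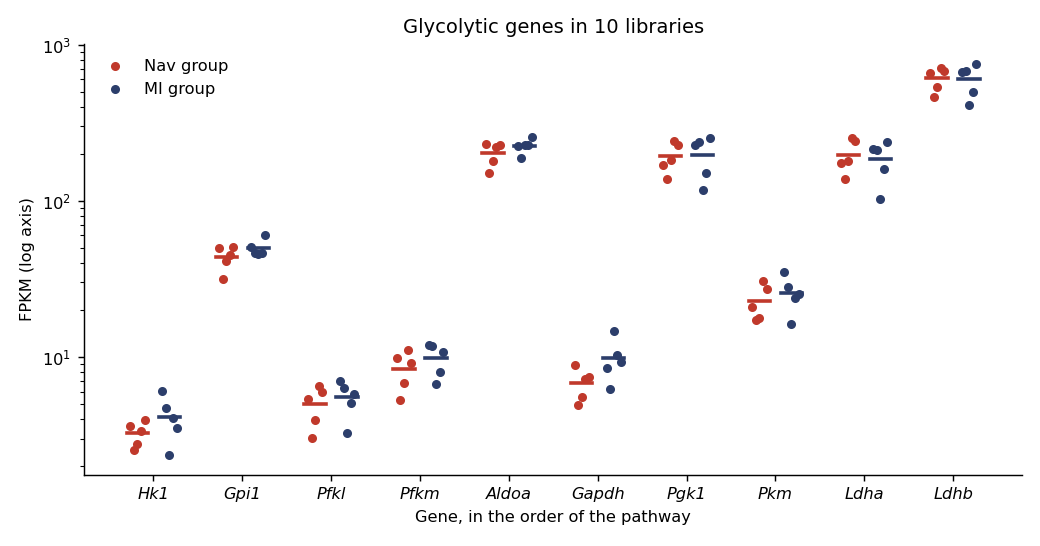
FPKM of the 10 glycolytic genes on a log axis, with 1 point per library (Nav group left, MI group right in each pair) and the group mean as a line. Ldhb lies highest with a mean of 605 FPKM, Hk1 lowest with 3.70 FPKM, and the 2 groups overlap for each gene.

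None of the 10 genes passed the test between the groups. In limma's moderated test on log2(FPKM + 0.5), fitted over 13412 genes with Benjamini-Hochberg adjustment, 49 of all tested genes (0.365%) had an adjusted p under 0.05 and 30 (0.224%) also had a log2 fold change of at least 1 in size, while 0 of the 10 glycolytic genes did either. The 30 became 194 without MI library 4, 38 and 20 without Nav libraries 4 and 5, and 1 to 3 without any other single library, with 0 glycolytic genes past the test each time. At an unadjusted p under 0.05 there was 1 of 10, Gapdh, against 12.8% of all tested genes. The groups overlapped for each of the 10 genes, whereas 2.84% of all tested genes had groups that did not overlap. The log2 fold change was below 0 for 8 of 10 glycolytic genes and for 71.7% of all tested genes, and the median was -0.16 for the 10 genes and -0.12 over all tested genes. With median-of-ratios scaling the medians became 0.02 and 0.03, and 4 of 10 lay below 0, so the direction of the set depended on the scaling.

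**Figure D2:**
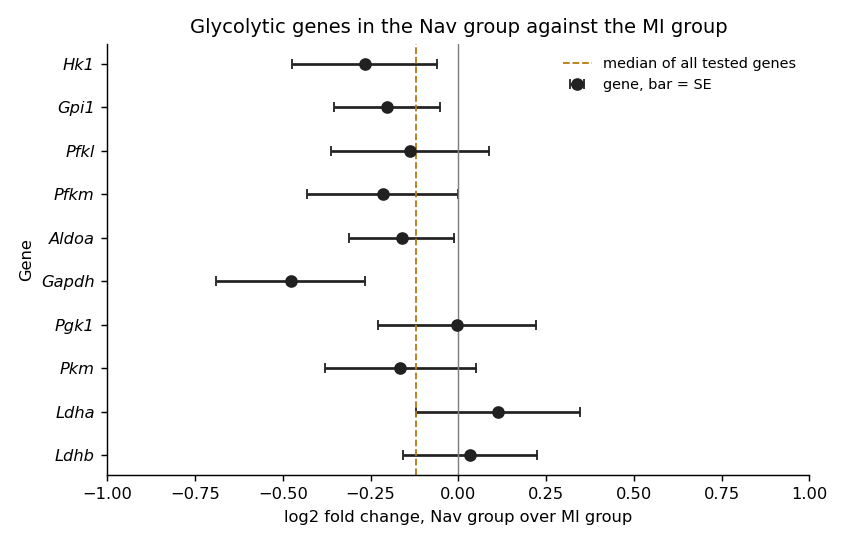
Log2 fold change of each glycolytic gene in the Nav group over the MI group, with bars of 1 SE, from limma on log2(FPKM + 0.5), and the median of all 13412 tested genes as a dashed line at -0.12. Gapdh is farthest from 0 at -0.48, and Pgk1 is nearest to 0.

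The investment phase showed low levels of its regulated enzymes. Hexokinase 1 phosphorylates glucose on entry to the cell. Hk1 (chromosome 10) measured 3.64, 2.53, 2.78, 3.37 and 3.96 FPKM in the Nav libraries, against 6.05, 4.73, 2.35, 4.06 and 3.51 FPKM in the MI libraries. The lowest and the highest library were both of the MI group, and the log2 fold change was -0.27 (SE 0.21, adjusted p = 0.611 by limma). Other hexokinases were close to 0, with means of 0.0956 FPKM for Hk2, 0.0770 FPKM for Hk3 and 0.213 FPKM for Hkdc1, and Adpgk, a sugar kinase that uses ADP, had 1.20 FPKM. Hk1 made up 91.5% ± 1.20 (SD, n = 5) of the summed FPKM of Hk1, Hk2, Hk3 and Hkdc1 in the Nav group and 89.3% ± 5.38 (SD, n = 5) in the MI group (exact two-sided permutation p = 0.436, adjusted over 5 isoenzyme shares p = 0.767).

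Glucose-6-phosphate isomerase, encoded by Gpi1 (chromosome 7), measured between 31.8 and 50.5 FPKM in the Nav libraries and between 45.5 and 60.0 FPKM in the MI libraries. Phosphofructokinase, which commits hexose to glycolysis, was represented by its muscle form Pfkm and its liver form Pfkl. Pfkm measured 9.87, 5.32, 6.82, 11.0 and 9.17 FPKM in the Nav libraries, against 11.9, 11.7, 6.75, 7.96 and 10.7 FPKM in the MI libraries. Pfkl measured 5.37, 3.02, 3.96, 6.53 and 6.01 FPKM in the Nav libraries, against 6.98, 6.37, 3.27, 5.08 and 5.82 FPKM in the MI libraries. Both genes were lowest in Nav libraries 2 and 3 and MI libraries 3 and 4, the 4 libraries of highest mitochondrial share. Pfkm exceeded Pfkl in each library and made up 56.0% ± 2.16 of the 3 isoenzymes Pfkm, Pfkl and Pfkp in the Nav group, and 56.5% ± 3.96 in the MI group (SD, n = 5 each, exact permutation p = 0.818). The platelet form Pfkp had a mean of 1.79 FPKM.

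Aldolase cleaves fructose 1,6-bisphosphate. Aldoa (chromosome 7), its muscle and ubiquitous form, measured 231, 151, 181, 222 and 227 FPKM in the Nav libraries, against 223, 188, 229, 226 and 256 FPKM in the MI libraries. The second Aldoa row, an adjacent annotated transcript, lay between 0 and 0.403 FPKM and was not tested. The brain form Aldoc had a mean of 1.74 FPKM. The groups overlapped for Aldoa, with a log2 fold change of -0.16 (SE 0.15, adjusted p = 0.681 by limma).

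The steps after aldolase included both high and low genes. Pgk1 (X chromosome), phosphoglycerate kinase, measured 169, 139, 184, 243 and 228 FPKM in the Nav libraries, against 228, 237, 117, 152 and 254 FPKM in the MI libraries. Its log2 fold change was 0.00 to 2 decimals (SE 0.23), and the sign of so small a value changed under 10 of the 23 alternative settings. Pkm (chromosome 9), pyruvate kinase of muscle and most other tissues, measured 20.9, 17.3, 17.7, 30.5 and 27.4 FPKM in the Nav libraries, against 35.2, 28.2, 16.2, 23.9 and 25.2 FPKM in the MI libraries. Pklr, the liver and red cell pyruvate kinase, had a mean of 7.67 FPKM, and Pkm made up 76.0% ± 4.55 of the pair in the Nav group and 75.1% ± 4.11 in the MI group (SD, n = 5 each, exact permutation p = 0.754).

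Lactate dehydrogenase interconverts pyruvate and lactate, and its subunits are encoded by Ldha, abundant in skeletal muscle, and Ldhb, abundant in heart and kidney cortex. Ldha (chromosome 7) measured 174, 138, 181, 254 and 242 FPKM in the Nav libraries, against 215, 212, 103, 161 and 240 FPKM in the MI libraries. Ldhb (chromosome 6) measured 663, 460, 534, 712 and 674 FPKM in the Nav libraries, against 665, 675, 410, 501 and 757 FPKM in the MI libraries. Ldhb exceeded Ldha in each library, by 2.79 to 3.82 times in the Nav group and by 3.10 to 3.99 times in the MI group. MI library 3 was the lowest of the 10 for both genes and also for Pgk1 and Pkm. Ldha made up 24.4% ± 2.43 of the pair in the Nav group and 23.3% ± 1.86 in the MI group (SD, n = 5 each, exact permutation p = 0.460). The smallest p this test can give with 5 libraries against 5 is 0.00794.

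Other enzymes of the pathway stood at similar levels in the steps that had no gene among the 10. Tpi1, triose phosphate isomerase, had a mean of 191 FPKM, close to Pgk1 and Ldha. Pgam1 and Pgam2, phosphoglycerate mutases, had 101 and 41.4 FPKM, and the enolases Eno1, Eno1b and Eno3 had 80.6, 11.6 and 2.81 FPKM. Eno1b had 99.5% identity to Eno1 over 1736 aligned bases, so the level of its row is uncertain. Of 18 further glycolytic genes listed, 10 were tested, 0 passed an adjusted p under 0.05, and 8 had a log2 fold change below 0 (median -0.24). Adpgk, with a log2 fold change of -0.41 (SE 0.17, adjusted p = 0.332 by limma), had an unadjusted p under 0.05. Of 13 regulators, such as the Pfkfb enzymes that set fructose 2,6-bisphosphate and the Pdk kinases that inhibit pyruvate dehydrogenase, 11 were tested and 0 passed. Pdk2 (46.4 FPKM), Pdk3 (14.2 FPKM), Pdk4 (11.5 FPKM) and Bpgm (9.14 FPKM) were the highest of them. Pfkfb4 was lower in each of the Nav libraries than in the MI libraries (means 0.957 and 1.82 FPKM, log2 fold change -0.73, SE 0.23). Its adjusted p was 0.211 by limma, and it was named after its values were seen. It was the 1 of 11 tested regulators with groups that did not overlap, against 2.84% of all tested genes.

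Of the enzymes of gluconeogenesis, which bypass the irreversible steps of glycolysis, G6pc, Fbp1 and Pck1 were far above their glycolytic counterparts. Fbp2, the muscle form of fructose-1,6-bisphosphatase (8.45 FPKM), and Pck2, the mitochondrial form of phosphoenolpyruvate carboxykinase (2.06 FPKM), were not, lying below Pfkm and Pkm in mean level. G6pc, which releases free glucose, was 21.4 to 42.9 times Hk1 in the Nav libraries and 15.0 to 61.0 times Hk1 in the MI libraries. Fbp1, which opposes phosphofructokinase, was 25.3 to 33.4 times the sum of the 3 phosphofructokinase genes in the Nav libraries and 16.7 to 29.6 times that sum in the MI libraries. Pck1, which with pyruvate carboxylase bypasses pyruvate kinase, was 10.3 to 19.0 times the sum of Pkm and Pklr in the Nav libraries and 10.3 to 26.2 times in the MI libraries. The ranges of all these ratios overlapped between the groups. Of the 7 gluconeogenic genes, 0 passed the test, and their median log2 fold change was -0.01. Genes of fructose metabolism included Sord, sorbitol dehydrogenase (606 FPKM), and Khk, ketohexokinase (277 FPKM). No gene passed among 6 of fructose metabolism (median log2 fold change -0.02), 7 of pyruvate entry into mitochondria (0.03) and 7 of the pentose phosphate pathway (-0.10).

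Against tubular enzymes, the glycolytic genes were lower in median level and in sum, with Gapdh taken at its own, uncertain row. The 27 tubular enzymes listed had a median level of 189 FPKM, against 35.5 FPKM for the 10 glycolytic genes. Ldhb (605 FPKM), Aldoa (213 FPKM), Pgk1 (195 FPKM) and Ldha (192 FPKM) lay above the tubular median. They summed to 13740 to 21820 FPKM in the Nav libraries and 13130 to 23240 FPKM in the MI libraries, while the 10 glycolytic genes summed to 952 to 1535 FPKM in the Nav libraries and 947 to 1621 FPKM in the MI libraries. Gpx3, the secreted glutathione peroxidase of the proximal tubule, alone had a mean of 10260 FPKM. Miox, which opens the ring of myo-inositol, had 1047 FPKM, Akr1c21, a keto reductase, 951 FPKM, and Cyp4b1, a cytochrome P450, 908 FPKM. Each of these means was above that of Ldhb, the highest of the 10 glycolytic genes with Gapdh at its own row. Gapdh summed with its near-identical copies averaged 1806 FPKM, above Miox, Akr1c21 and Cyp4b1 and below Gpx3. All 27 tubular enzymes were tested and 0 passed, with a median log2 fold change of 0.00.

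**Figure D3:**
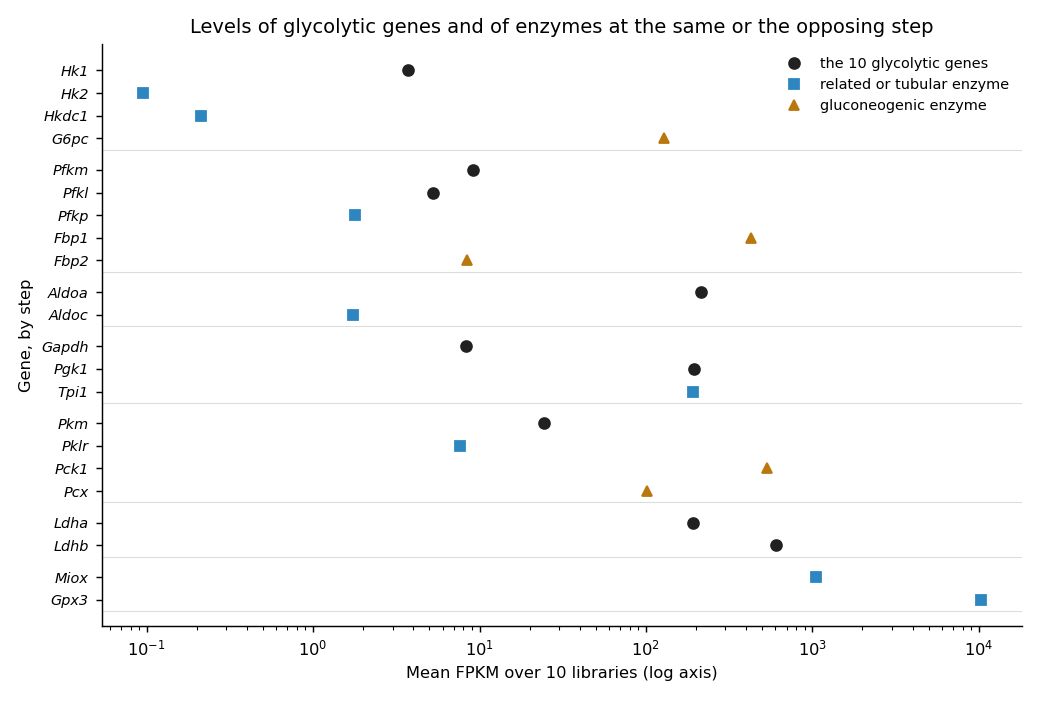
Mean FPKM over the 10 libraries on a log axis for glycolytic genes (circles), enzymes related to them or tubular (squares) and gluconeogenic enzymes (triangles), grouped by step. G6pc, Fbp1 and Pck1 lie to the right of Hk1, Pfkm and Pkm, and Gapdh (8.29 FPKM) lies far to the left of Pgk1 (195 FPKM) and Tpi1 (191 FPKM).

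Gapdh was low beside the enzymes of the neighbouring steps. Glyceraldehyde-3-phosphate dehydrogenase catalyses the step between triose phosphate isomerase and phosphoglycerate kinase and is widely used as a reference transcript. Gapdh (mm10, chromosome 6, 125161715 to 125165773, minus strand) measured 8.84, 4.90, 5.54, 7.23 and 7.42 FPKM in the Nav libraries, against 8.53, 6.25, 14.6, 10.3 and 9.35 FPKM in the MI libraries. A higher mean was listed for 3964 genes. MI library 3 was the highest, and the groups overlapped. The log2 fold change was -0.48 (SE 0.21, unadjusted p = 0.0425, adjusted p = 0.378 by limma), and without the 4 libraries of highest mitochondrial share it was -0.02. Pgk1 was 19.2 to 33.6 times Gapdh in the Nav libraries and 7.99 to 37.9 times Gapdh in the MI libraries. Of 12 genes often used as reference transcripts, 11 had a higher mean than Gapdh. Actb, cytoplasmic actin, was 10.9 to 16.6 times Gapdh in the Nav libraries and 11.4 to 17.5 times in the MI libraries, and Hprt, of purine salvage, 7.75 to 14.2 times in the Nav libraries and 4.86 to 11.2 times in the MI libraries. The ratio of Eef1a1, a translation elongation factor, to Gapdh ranged from 182 to 268 in the Nav libraries and from 65.2 to 311 in the MI libraries.

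The mouse genome carries many processed copies of Gapdh, formed by reverse transcription of its mRNA. Alignment of the Gapdh transcript to all annotated transcripts found 152 copies with at least 90% identity over at least 300 bases, and 110 of them, on 21 chromosomes, had a row in the table. Of these, 108 were annotated as pseudogenes. Together they summed to 1912, 1295, 1568, 1710 and 1828 FPKM in the Nav libraries, against 1915, 1734, 1717, 1891 and 2408 FPKM in the MI libraries. The Gapdh row was thus only 0.352 to 0.460% of the summed FPKM of Gapdh and its copies in the Nav libraries and 0.359 to 0.845% in the MI libraries. A stretch of 90 bases of the coding sequence, from coding base 133 to 222, is shown for Gapdh and for 6 copies of differing level, with bases that differ from Gapdh in capitals. The copies were chosen after their values were seen, and the sequences are those of GENCODE M21 transcripts on GRCm38.
Gapdh: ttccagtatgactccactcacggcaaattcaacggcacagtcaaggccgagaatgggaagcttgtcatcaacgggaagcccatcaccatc
Gm12671: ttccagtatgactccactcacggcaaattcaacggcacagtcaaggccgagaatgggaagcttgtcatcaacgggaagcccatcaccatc
Gm5559: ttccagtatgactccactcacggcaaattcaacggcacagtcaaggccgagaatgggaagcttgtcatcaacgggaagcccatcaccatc
Gapdh-ps15: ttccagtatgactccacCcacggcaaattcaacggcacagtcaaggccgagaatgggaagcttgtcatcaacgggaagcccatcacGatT
Gapdh-ps16: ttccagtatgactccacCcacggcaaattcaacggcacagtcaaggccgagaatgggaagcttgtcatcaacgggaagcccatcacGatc
Gm10290: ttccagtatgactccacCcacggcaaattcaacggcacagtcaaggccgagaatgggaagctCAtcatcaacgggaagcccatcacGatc
Gm12017: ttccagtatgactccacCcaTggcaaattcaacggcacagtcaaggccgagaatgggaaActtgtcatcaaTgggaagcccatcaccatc

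The copies identical to Gapdh over this stretch were among the highest of the copies. Gm12671 (chromosome 4, 91851668 to 91852669) was identical to Gapdh over its whole aligned length and had a mean of 157 FPKM, and Gm5559 (chromosome 5, 95861714 to 95862715) differed at 1 base and had 229 FPKM. Gapdh-ps15 (Y chromosome, 38619783 to 38620784), with 5 differences over the alignment, had 44.2 FPKM, and Gapdh-ps16 (chromosome 8, 92715747 to 92716975), with 8 differences over a longer alignment, had 24.7 FPKM. Gm10290 (chromosome 5), with 20 differences, and Gm12017 (chromosome 11), with 58, had 0.0470 and 0.0150 FPKM. Further copies listed by name were Gm12070 (110 FPKM), Gm3839 (2.44 FPKM) and Gm10291 (1.24 FPKM), with identities of 99.9%, 99.1% and 98.6%. Across all copies with a row, the level followed identity. The 26 copies of at least 99% identity had a median of 37.3 FPKM and held 98.3% of the summed FPKM of the copies, and 19 of them were above 10 FPKM. The 14 copies from 98 to under 99% had a median of 0.375 FPKM, the 12 from 96 to under 98% had 0.254 FPKM, and the 58 from 90 to under 96% had 0.0180 FPKM. Over the 110 copies, Spearman's rho between identity and mean FPKM was 0.79, a description across genes that share reads.

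**Figure D4:**
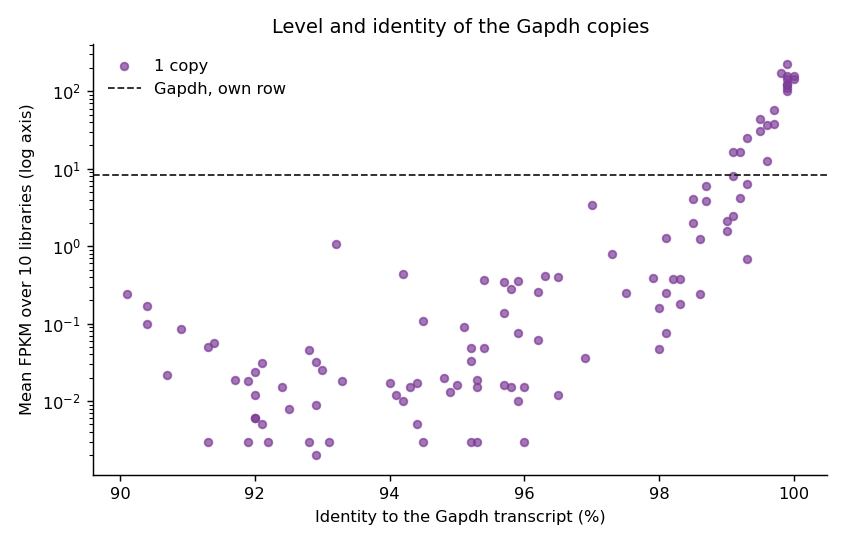
Mean FPKM over 10 libraries (log axis) against identity to the Gapdh transcript in percent, with 1 point for each of the 110 copies in the table, and the level of the Gapdh row (8.29 FPKM) as a dashed line. The 19 copies above 10 FPKM all have at least 99% identity, and those under 99% lie below the line.

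Reads from stretches that Gapdh shares with a copy match both equally well, so the values of the Gapdh row and of each near-identical copy are uncertain. The sources used here do not say how the authors' processing divided such reads, and its part in the low Gapdh row was not tested. Summed with its copies, Gapdh averaged 1669 ± 244 FPKM in the Nav group and 1943 ± 280 FPKM in the MI group (SD, n = 5 each). Its log2 fold change was then -0.22 (SE 0.16, unadjusted p = 0.183, adjusted p = 0.568 by limma), an alternative chosen after seeing the data. The sum was 7.07 to 11.3 times Pgk1 in the Nav libraries and 7.34 to 14.8 times Pgk1 in the MI libraries. MI library 3, the highest of the 10 in the Gapdh row, was the lowest of the MI group in the sum of the copies. Over the 10 libraries the sum of the copies correlated with Gpi1 (Pearson r = 0.97) and Aldoa (0.90) more closely than with the Gapdh row (0.57). The remaining glycolytic genes were not compared with this sum. Over all tested genes the median of the highest r with another gene was also 0.97.

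**Figure D5:**
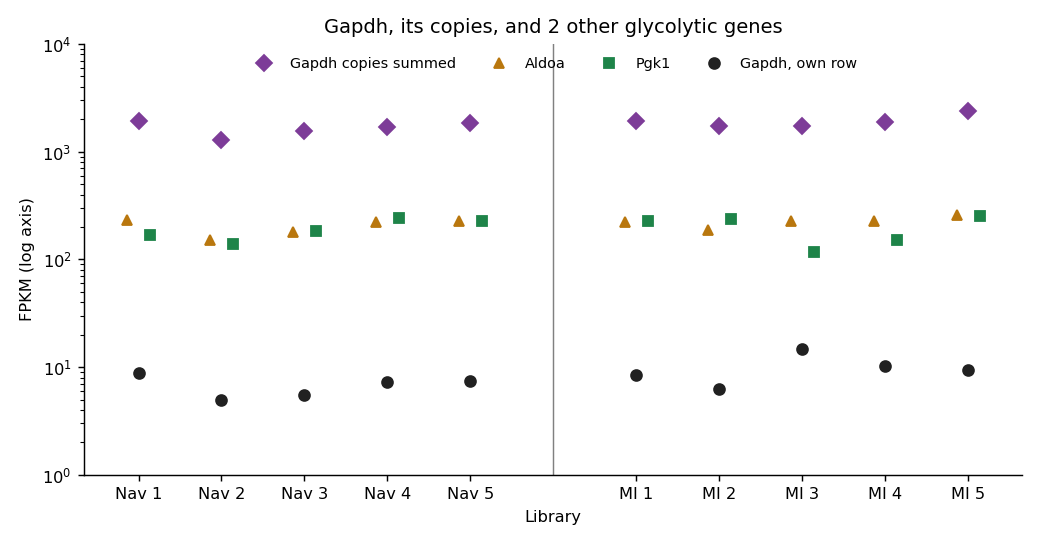
FPKM on a log axis in each library (5 of the Nav group left, 5 of the MI group right) for the summed Gapdh copies, Aldoa, Pgk1 and the Gapdh row. The copies sum to between 1295 and 2408 FPKM, while the Gapdh row lies between 4.90 and 14.6 FPKM.

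Copies of the other glycolytic genes took little of the signal. The same search gave 4 copies of Pgk1, 10 of Ldha, 6 of Pkm, 3 of Aldoa, 1 of Ldhb and 1 of Gpi1, and none of Hk1, Pfkl or Pfkm. Pgk1 held 94.7 to 96.4% of the FPKM of itself and its copies in the Nav libraries and 95.1 to 97.3% in the MI libraries, although Pgk1-rs7 (4.65 FPKM) and Gm5537 (3.70 FPKM) had 100% identity to it over the aligned bases. Pkm held 91.2 to 94.5% in the Nav libraries and 92.9 to 97.2% in the MI libraries. The other members with copies held at least 98.2% of the sum in each library, with Ldhb-ps at 1.18 FPKM, Ldha-ps2 at 0.594 FPKM and Gpi-ps at 0.590 FPKM, and with the Aldoa relatives Aldoart1 and Aldoart2 at 0.0236 and 0.00329 FPKM. Gm10059, listed as a copy but not found by the search, had 0.620 FPKM. Among the enzymes outside the 10, Gm4735 (15.7 FPKM) and Eno1b (11.6 FPKM) were found as copies of Eno1. Tpi-rs11 (14.5 FPKM) was a copy of Tpi1 and Pgam1-ps2 (10.9 FPKM) of Pgam1.

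The 10 genes varied across the libraries, and many pairs of them, though not all, varied together. The coefficient of variation over the 10 libraries ranged from 14.4% for Aldoa to 33.8% for Gapdh, against a median of 23.7% over all tested genes. Over the 10 libraries, log2(FPKM + 0.5) of Pgk1 and Ldha had a Pearson r of 0.97, that of Pfkl and Pfkm 0.96 and that of Pgk1 and Ldhb 0.94. The median of the 45 pairs was 0.65, and 0.77 for the pairs without Gapdh. Aldoa had an r of 0.29 with Ldha and with Pgk1. The median r over pairs of all tested genes was not computed. Gapdh had an r below 0 with 5 of the other 9 genes, the lowest being -0.35 with Ldha, and its highest was 0.78 with Aldoa. These are descriptions over libraries that share their scaling. The share of mitochondrially encoded genes in a library had an r below -0.6 with 9 of the 10 genes, with Gapdh (-0.10) as the exception, against 44.9% of all tested genes. The genes most like each member over the 10 libraries were Prkx for Hk1 (r = 0.96), Apba3 for Gpi1 (0.99), Psmb2 for Pfkl (0.98), Ddx18 for Pfkm (0.99), Cope for Aldoa (0.99), Ybx2 for Gapdh (0.96), Glo1 for Pgk1 (0.99), Golga5 for Pkm (0.97), Tpi1 for Ldha (0.99) and Ociad1 for Ldhb (0.99). The median of the highest r over all tested genes was 0.97, so values of this size were usual.

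Pgk1 and Ldha are classical targets of the hypoxia-inducible factors and were also picked because they varied together. Their r of 0.97 was of usual size here, and a part of these factors in it was not tested. The 250 bases before the start of each gene are shown, with matches to ACGTG or GCGTG on either strand in capitals. These 5 letters form the core of the hypoxia response element. The sequences are from RefSeq (GRCm38.p6), for Pgk1 at chrX:106186850-106187099 on the plus strand and for the first of 2 listed starts of Ldha at chr7:46845554-46845803 on the plus strand.
Pgk1: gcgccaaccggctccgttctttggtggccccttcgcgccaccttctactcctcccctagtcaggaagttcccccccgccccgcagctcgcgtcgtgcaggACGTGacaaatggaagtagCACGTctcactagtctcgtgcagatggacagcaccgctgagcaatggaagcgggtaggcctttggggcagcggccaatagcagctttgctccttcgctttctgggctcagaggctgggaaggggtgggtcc
Ldha: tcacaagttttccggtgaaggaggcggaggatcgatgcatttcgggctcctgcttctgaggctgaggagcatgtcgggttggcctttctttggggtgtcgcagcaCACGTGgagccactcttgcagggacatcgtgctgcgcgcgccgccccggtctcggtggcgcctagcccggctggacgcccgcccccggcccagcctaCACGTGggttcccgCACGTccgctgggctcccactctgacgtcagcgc

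ACGTG matched at 2 places before Pgk1 and at 3 places before this start of Ldha, where CACGTG holds the letters on both strands. The other listed start of Ldha, which is not printed, held 0 ACGTG and 1 GCGTG. Over the 18 starts that RefSeq listed for the 10 genes, several of which overlap, 7 held ACGTG (38.9%) and 13 held either motif (72.2%), against 16.6% and 38.6% of all 32851 listed promoters. Since starts overlap, the same site can be counted more than once. Counted by gene, 5 of the 10 held ACGTG and 9 held either motif at some start. Genes with several listed starts had more chances to hold a match. The share by gene over all genes was not computed, so the shares of all promoters cannot be set beside these counts. The difference from all promoters was not tested, and a match is a description of the letters and not of binding. Of 12 further hypoxia-responsive genes listed, 11 were tested and 0 passed. At an unadjusted p under 0.05 by limma, 3 of the 11 were lower and 1 was higher, against 12.8% of all tested genes. The log2 fold change was below 0 for 8 of the 11 (median -0.24), against 71.7% of all tested genes. Ndrg1 (362 FPKM), Bnip3 (76.1 FPKM), Vegfa (35.3 FPKM) and Egln1 (15.4 FPKM) were the highest of the 12 listed. Vegfa had a log2 fold change of -0.56 (SE 0.25) and Bnip3 one of 0.30 (SE 0.14), with adjusted p values of 0.380 and 0.385 by limma.

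Markers of other cell types were measured beside these genes. The 8 endothelial markers summed to 13.0 to 31.1 FPKM in the Nav group, against 24.2 to 67.2 FPKM in the MI group. All 8 had a log2 fold change below 0 with an unadjusted p under 0.05 (median -1.07). Of these, 1, Eng, passed the adjusted threshold (-1.55, SE 0.26, adjusted p = 0.0317 by limma). The number of all tested genes past this threshold, 49, was 0 without the filter on low values, so Eng did not pass there. It ranged from 1 to 295 with single libraries left out, and Eng was not followed in those fits. For 3 of the 8 endothelial markers the Nav libraries lay wholly below the MI libraries. Over all tested genes, 12.8% had an unadjusted p under 0.05 and 2.84% had groups that did not overlap. Fewer endothelial cells and less RNA per cell cannot be told apart in bulk tissue, nor can treatment be told from the batch. Markers of the thick ascending limb, a glycolytic segment of the nephron, summed to 310 to 458 FPKM in the Nav group and 309 to 881 FPKM in the MI group. Of these 5 markers 0 passed the test, 5 had a log2 fold change below 0 (median -0.41) and 1 was lower at an unadjusted p under 0.05. Distal tubule markers summed to 47.9 to 99.4 FPKM in the Nav group and 61.6 to 124 FPKM in the MI group. Of these 4 markers 0 passed, 3 were below 0 (median -0.34) and 2 were lower at an unadjusted p under 0.05. Collecting duct markers summed to 118 to 257 FPKM in the Nav group and 123 to 163 FPKM in the MI group. Of these 7 markers 0 passed, 0 were below 0 (median 0.35), 2 were higher at an unadjusted p under 0.05, and 1 had groups that did not overlap. Red cell markers summed to 61.8 to 406 FPKM in the Nav group and 63.4 to 1040 FPKM in the MI group. Of these 5 markers 0 passed and 5 were below 0 (median -0.62). Leukocyte markers summed to 5.12 to 8.17 FPKM in the Nav group and 9.81 to 13.3 FPKM in the MI group. Only 2 leukocyte markers were tested, of which 0 passed and 2 were lower at an unadjusted p under 0.05 (median -0.68). Skeletal muscle markers summed to at most 2.71 FPKM in any library. Of the markers with a row in the table, 9 of 10 listed for cardiomyocytes, 7 of 8 for skeletal muscle and 7 of 8 for leukocytes, 0 were at 0 in every library. The part of these cell types in the levels of the glycolytic genes was not tested.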

How the data were processed

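The authors deposited FPKM for 29868 genes, with 1 column per library. Per the labels and the study's methods, poly(A) RNA was sequenced as strand-marked paired ends, and reads were processed with cutadapt 1.9, HISAT2 2.0.4 (mm10) and StringTie 1.3.4d. Which annotation release was used is not stated in those sources. The authors' count tools, DESeq2 and edgeR, were not used, since no counts were analysed here.

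The 13412 genes that reached 0.5 FPKM in 5 or more libraries were fitted by group as log2(FPKM + 0.5) with limma 3.58.1 in R 4.3.3 (trend and robust prior), so fold changes of low genes are understated. A call required a Benjamini-Hochberg adjusted p below 0.05 and a log2 fold change of at least 1 in size. Shares were compared by exact permutation over 252 assignments, with adjustment over 5 shares, of which 1 is not reported here, neighbouring levels by 1024 sign patterns. Copies were sought with BLAST+ 2.17.0 among GENCODE M21 transcripts (at least 90% identity over at least 300 bases and 50% of the copy, same strand). Depth was estimated from single-transcript genes, taking their most common low value as 1 fragment. The comparison of the Nav and MI groups was also simulated over 13412 genes. Genes were counted there at an adjusted p below 0.05 alone, without the limit on fold change that a call required. The fit recovered 69.8% of genes changed by a log2 of 1 and 98% of those changed by 2. A mean of 7 unchanged genes passed (false calls). These figures do not describe calls under both limits. In the libraries themselves genes varied together (median highest r of 0.97), and calls ranged from 1 to 194 with single libraries left out. Whether the recovery and false-call figures hold under such shared variation was not tested.

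The named genes were the 10 members, further glycolytic genes with a mean of at least 1 FPKM, up to 4 genes of highest mean and each gene past the test in the other lists, listed copies and the most alike gene. The near-zero hexokinases, Actb, Hprt and 5 of the printed Gapdh copies were named beside these. The members and lists were chosen with earlier results of these data known. Alternatives covered the pseudocount, the filter, the scaling, the mitochondrial share, a replicate block, weights and each library left out.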

Additional observations from a re-analysis of the deposited data

Results flagged for a closer look

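Among 32 groups of 5 libraries examined for a library far from the rest (10 genes, the sum of Gapdh and its copies and 5 isoenzyme shares, in each of 2 groups), 2 stood apart, and chance alone gives about 1 in 20. The Ldha share of Ldha and Ldhb was 20.0% in MI library 3, below the other MI libraries, which lay between 23.9 and 24.4%. The sum of Gapdh and its copies was 2417 FPKM in MI library 5, above the other MI libraries, which lay between 1732 and 1923 FPKM.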

How the results depend on the processing

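No glycolytic gene passed an adjusted p under 0.05 under any of the 23 alternatives. The count of called genes, 30, became 18 with a pseudocount of 1, 0 without a filter on low values (by limma, where 2809 genes had p under 0.05 before adjustment), 6 with the replicate block, 117 with array weights, 151 without the 4 libraries of highest mitochondrial share (chosen after seeing the data), and 1 to 194 with single libraries left out. The numbers did not pair the libraries (same-number correlations of -0.223 to 0.046). The order of levels was the same with medians. Log2 fold changes, none called, changed sign with median-of-ratios scaling for Pfkl (0.025), Aldoa (0.021), Pgk1 (0.179) and Pkm (0.013), for Pgk1 with reference gene scaling (0.086) and the mitochondrial share as covariate (0.126), for Pgk1 summed with its copies (0.00, chosen after seeing the data), and for Ldhb without mitochondrial genes (-0.006). Without the 4 libraries they did so for Aldoa (0.037), Ldha (-0.009) and Ldhb (-0.031). The Hk1 share differed by -1.92 points after adding 0.5 FPKM. With single libraries left out the ranges spanned 0 for Pfkl (-0.298 to 0.009), Pgk1 (-0.177 to 0.107), Ldha (-0.086 to 0.234), Ldhb (-0.097 to 0.129), the Pfkm share (-2.17 to 0.226 points) and the Pkm share (-0.558 to 2.37 points). Why these values moved was not tested.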
